A study of Mus musculus with 12 samples.

Results

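The integrins and leukocyte adhesion molecules of macrophages were followed in RNA sequencing of mouse bone marrow-derived macrophages (BMDMs). They are 10 genes, taken by symbol from the 43131 genes of the count table. They comprise the ligands Icam1 and Vcam1, the integrin alpha chains Itgal, Itgam, Itgax, Itga4 and Itga5, the beta chains Itgb1 and Itgb2, and the selectin ligand Selplg. Where a gene has several transcript rows, the row with the largest total served for it, and all 10 genes passed the filter on low counts in every comparison. Levels are in CPM, counts scaled to the size of the library with the TMM factors of edgeR.

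BMDMs were grown from bone marrow of C57BL/6 mice for 7 days in 50 ng/mL of M-CSF. Group A is headed LPS- tlr4f/f, group B LPS- tlr4f/f-lysM-cre, group C LPS+ tlr4f/f and group D LPS+ tlr4f/f-lysM-cre, with 3 libraries in each. In every group both Tlr4 alleles carry loxP sites, and tlr4f/f-lysM-cre mice also carry Cre driven from the lysozyme M gene (Lyz2), which is active in neutrophils as well as macrophages, so that Tlr4 is lost only where Cre has acted. LPS, the bacterial ligand of TLR4, was given at 1 µg/mL for 6 h. The age of the marrow donors and whether the 3 libraries of a group came from separate mice are not given in the sources used here, so p-values measure the spread between libraries, which may be technical.

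The headings of groups B and C may be exchanged. Tlr4, the targeted gene, was at 76.7, 147 and 121 CPM in group A and at 117, 95.1 and 116 CPM in group B, but at 31.1, 27.8 and 24.3 CPM in group C and at 27.5, 24.6 and 24.8 CPM in group D. Lyz2, the gene that carries Cre, was at 5950 to 23264 CPM in groups A and B and at 10.4 to 75.6 CPM in groups C and D. Il1b, a cytokine gene that LPS induces, was at 1640 to 8220 CPM in group B and at 2498 to 2687 CPM in group D, against 0.0748 to 6.93 CPM in group A and 2.68 to 3.58 CPM in group C. The low levels of the targeted gene were thus shared by groups C and D, and the high levels of the LPS-induced gene by groups B and D. Groups are therefore named by letter. The first reading is as headed, and the other takes B as LPS-treated tlr4f/f and C as unstimulated tlr4f/f-lysM-cre. Both readings are given where the 10 genes are summarized by pair, and other results are given by letter only. Groups A and D are the same in both readings. The exchange changes no value, only the question that a pair of groups answers.

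The libraries held 33577087 to 56445268 counts over all 43131 genes, with a median of 45330681. Replicate 3 of group A stood apart from replicates 1 and 2 of its group, with the highest Lyz2 level of all 12 libraries, 406 CPM of Itgam against 1129 and 1599, and 2 counts of Vcam1 against 135 and 331. The macrophage markers Adgre1, Csf1r and Cd68 were detected in every library, at 623 to 4381, 1039 to 2901 and 582 to 1019 CPM. Results that rest on 1 library are given with and without it.

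Integrins are heterodimers of an alpha and a beta chain that hold a leukocyte to other cells and to matrix. The beta chain of Itgb2 (CD18) pairs with Itgal (CD11a) to form LFA-1, with Itgam (CD11b) to form Mac-1 and with Itgax (CD11c) to form p150,95, and LFA-1 and Mac-1 bind ICAM-1. The beta chain of Itgb1 (CD29) pairs with Itga4 to form VLA-4, which binds VCAM-1, and with Itga5 to form the fibronectin receptor VLA-5, while PSGL-1, the product of Selplg, lets leukocytes roll on selectins. Endothelium is known to display ICAM-1 and VCAM-1 in inflammation, and macrophages themselves can express both.

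Promoters of RefSeq (GRCm38.p6) were matched for 6 of the 10 genes, which were Icam1, Itgam, Itgax, Itga4, Itga5 and Itgb1. Each spans 250 bases before to 50 bases after the RefSeq start, and both strands were searched. The stretches before the start of Icam1 (chr9:21015690-21015939, plus strand) and of Itgax (chr7:128129300-128129549, plus strand) are shown because these genes followed different groups, a choice made after their values were seen. Capitals mark a Rel motif of NF-kB in Icam1 and an AP-1 motif in Itgax, and the motif to mark was picked separately for each gene. The plan had been to show promoters of called genes that share an NF-kB motif, a rule that Itgax does not meet.
Icam1: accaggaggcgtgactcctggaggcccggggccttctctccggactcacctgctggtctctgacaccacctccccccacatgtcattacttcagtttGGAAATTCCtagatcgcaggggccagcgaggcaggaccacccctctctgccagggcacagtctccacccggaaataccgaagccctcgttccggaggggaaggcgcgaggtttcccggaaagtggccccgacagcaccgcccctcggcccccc
Itgax: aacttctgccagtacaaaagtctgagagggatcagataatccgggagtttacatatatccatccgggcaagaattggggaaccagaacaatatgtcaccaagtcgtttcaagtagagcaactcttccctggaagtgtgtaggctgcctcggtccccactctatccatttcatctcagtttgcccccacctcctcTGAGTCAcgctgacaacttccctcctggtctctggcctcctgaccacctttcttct
The Rel motif GGAANTTCC was found in 1 of the 6 promoters, that of Icam1, as GGAAATTCC beginning 153 bases before the start. It is present in 0.9% of 32851 mouse promoters. The AP-1 motif TGANTCA was found in 1 of the 6, that of Itgax, as TGAGTCA beginning 56 bases before the start, against 7.8% of all promoters. A longer NF-kB consensus was in 0 of the 6 and in 5.6% of all promoters, and the interferon-stimulated response element (ISRE) in 0 of the 6 and in 3.4%. GAGGAA, a core read by PU.1 and other Ets factors, was in the promoters of Itgam, Itgb1 and Itga5, 3 of the 6, against 28.3% of all. The Sp1 motif GGGCGG was in 5 of the 6 against 35.7%, and TATAAA in 1 of the 6, Icam1, against 13.6%. The stretches in capitals overlap none of the other motifs. A match of letters is a description and not a binding site.

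Icam1 encodes the ligand of LFA-1 and Mac-1 (chromosome 9 of mm10, 21015985 to 21028817). Its level was at 66.3, 87.3 and 47.3 CPM in group A, 1416, 1639 and 826 CPM in group B, 98.4, 97.8 and 87.4 CPM in group C and 840, 990 and 807 CPM in group D. All 6 libraries of groups B and D were above all 6 of groups A and C. The log2 fold change was 4.26 in B against A (standard error 0.381, adjusted p = 0.000806, edgeR), 3.21 in D against C (standard error 0.0866, adjusted p = 6.96e-11, edgeR) and 3.71 in D against A (standard error 0.257, adjusted p = 0.000341, edgeR). These 3 calls held without each of the libraries in turn, with log2 fold changes of 3.12 to 4.53. Between C and A it was 0.52 (95% interval -0.01 to 1.05) and between D and B -0.54 (-1.13 to 0.04), and neither passed the test. An antisense gene, Gm47079, overlaps Icam1 and had 37743 counts over the 12 libraries against 265734 of Icam1. It was at 6.8 to 14.3 CPM in groups A and C and at 119 to 207 CPM in groups B and D. The strand setting of the counting is not given in the sources used here, so the reads of both genes cannot be told apart.

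Vcam1 encodes the ligand of VLA-4 (chromosome 3, 116109949 to 116129688) and was the lowest of the 10 genes per kilobase in 3 of the 4 groups. It was at 2.31, 5.31 and 0.0374 CPM in group A, 80.8, 149 and 162 CPM in group B, 3.92, 5.99 and 1.22 CPM in group C and 28.7, 36.7 and 22.3 CPM in group D. The levels of the 4 groups were ordered with B highest and D next, and groups A and C overlapped. Between D and B the log2 fold change was -2.15 (standard error 0.305, adjusted p = 0.00526, edgeR), so that Vcam1 was lower in group D by 4.44-fold (95% interval of the ratio 0.136 to 0.373). That call was lost without replicate 2 of group B (adjusted p = 0.0105, edgeR) and without replicate 1, 2 or 3 of group D (adjusted p = 0.0384, 0.0268 and 0.0339, edgeR). The estimate stayed between -2.42 and -1.98. The call was also lost in the fit of all 12 libraries (adjusted p = 0.0944, edgeR) and with the replicate number as a block (adjusted p = 0.016, edgeR). In B against A the log2 fold change was 5.66 (95% interval 2.53 to 8.78, adjusted p = 0.0168, edgeR) and in D against C 3.02 (1.45 to 4.59, adjusted p = 0.0102, edgeR). Both missed the threshold of 0.01, and both passed it without replicate 3 of the lower group (5.07 with adjusted p = 0.0037 and 2.55 with adjusted p = 0.00101, edgeR). In D against A it was 3.51 (adjusted p = 0.0534, edgeR), or 2.93 without replicate 3 of group A (adjusted p = 0.00524, edgeR).

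Stromal cells also express Vcam1, and their markers varied between libraries. The sum of 8 fibroblast and stromal markers was 667, 62.2 and 9.53 CPM in group A, 981, 189 and 1511 CPM in group B, 20.8 to 25.5 CPM in group C and 45.7 to 57.9 CPM in group D. Of these 8 markers, 1 in group B, 2 in groups A and D and 4 in group C stayed under 1 CPM in every library. One of the 8, Pdgfrb, a growth factor receptor of stromal cells, is named after its values were seen because it was high in the same groups as Vcam1. It was at 11.9, 1.54 and 0.411 CPM in group A, 59.8, 51.8 and 47.8 CPM in group B, 0.503, 0.743 and 0.551 CPM in group C and 13.8, 21 and 15.5 CPM in group D. Pdgfrb was called higher in D against C (log2 fold change 4.81, adjusted p = 2.54e-09, edgeR) and lower in D against B (-1.66, adjusted p = 0.00273, edgeR). Col1a1, Dcn and the sum of the 8 shared its order of groups B, D and C without overlap. They did not share its pattern in group A, where replicate 1 was above every library of group D. Col1a1 was at 344, 29.3 and 2.3 CPM in group A and 466, 59.7 and 609 CPM in group B. It was at 8.49, 7.22 and 5.94 CPM in group C and 13.8, 10.6 and 8.78 CPM in group D. Dcn was at 4.34, 0.69 and 0.916 CPM in group A and 14.1, 5.19 and 51.6 CPM in group B. It was at 2.6, 1.43 and 2.05 CPM in group C and 2.84, 2.95 and 3.51 CPM in group D. In bulk RNA, fewer cells of a type and less RNA per cell cannot be told apart, and the part of stromal RNA in the Vcam1 values was not tested. Of 6 endothelial markers 4 to 5 stayed under 1 CPM in each group, with Kdr, the receptor of VEGF, at up to 115 CPM in replicate 2 of group B. Neutrophil markers summed to 192 CPM in replicate 3 of group B and to at most 27.8 CPM in the other 11 libraries. Platelet markers summed to 89.2 to 260 CPM in group B and to at most 69.2 CPM elsewhere. Of 5 platelet markers, 3 stayed under 1 CPM in every library of each group. Most of the sum in group B was Pf4, at 142, 88.3 and 257 CPM. Markers of T, B and dendritic cells summed to at most 6.79 CPM.

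**Figure D1:**
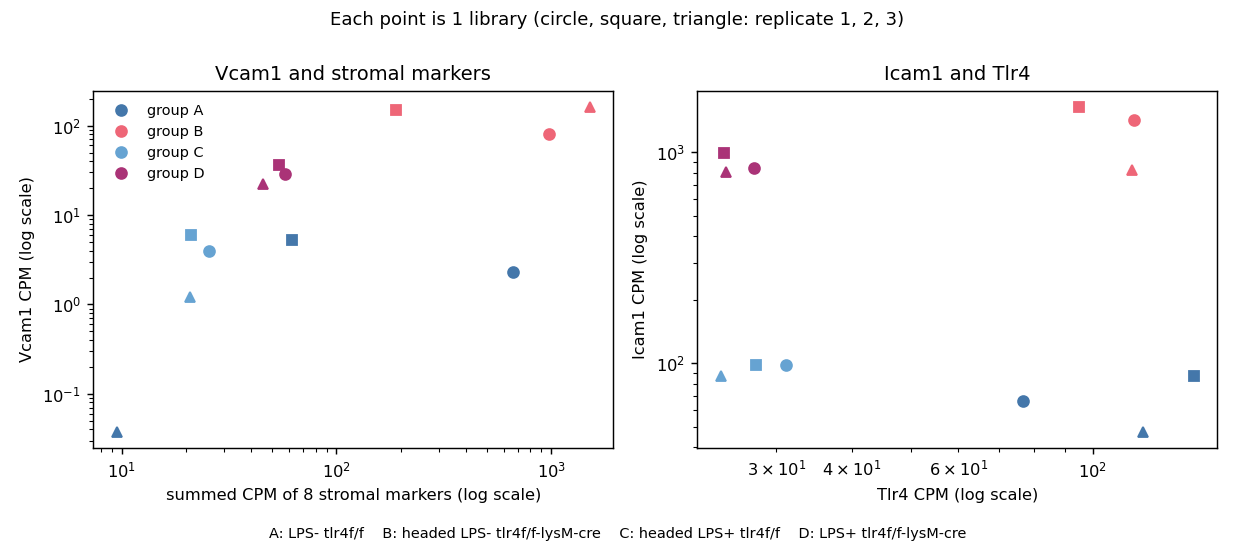
Left, Vcam1 CPM against the summed CPM of 8 stromal markers, and right, Icam1 CPM against Tlr4 CPM, on log axes with 1 point per library. The stromal sum was 189 to 1511 CPM in group B, 45.7 to 57.9 CPM in group D, 20.8 to 25.5 CPM in group C and 9.53 to 667 CPM in group A, while Icam1 was high in groups B and D and Tlr4 in groups A and B.

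Itgal, the alpha chain of LFA-1 (chromosome 7, 127296260 to 127335138), was high in the same groups as Icam1. It was at 67, 51.4 and 11.7 CPM in group A, 767, 789 and 661 CPM in group B, 37.3, 35.6 and 35.9 CPM in group C and 581, 510 and 375 CPM in group D. The lowest library of groups B and D was above the highest of groups A and C. The log2 fold change was 4.08 in B against A (standard error 0.65, adjusted p = 0.00483, edgeR), 3.74 in D against C (standard error 0.172, adjusted p = 3.73e-06, edgeR) and 3.49 in D against A (standard error 0.647, adjusted p = 0.00807, edgeR). In D against C the call held without each library in turn. In B against A it was lost without replicate 2 of group A (adjusted p = 0.0209, edgeR) and without replicate 1, 2 or 3 of group B (0.0162, 0.0167 and 0.0152). With 1 of the 6 libraries of D against A left out, it held for 1 of them, replicate 3 of group A (adjusted p = 0.000669, edgeR), and was lost for each other, with an adjusted p of 0.0129 to 0.0319. The D against A call was also lost with the replicate block (adjusted p = 0.0128, edgeR), with counts summed over transcripts (0.0103) and with no filter beyond 1 count (0.0353). Between D and B it was -0.59 (95% interval -1.01 to -0.16, adjusted p = 0.0513, edgeR), with no overlap between the groups.

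Itgax, the CD11c chain (chromosome 7, 128129547 to 128150657), followed other groups. It was at 37.1, 224 and 35.2 CPM in group A and 51.3, 261 and 147 CPM in group B, but at 570, 630 and 622 CPM in group C and 690, 714 and 711 CPM in group D. All 6 libraries of groups C and D were above all 6 of groups A and B, and these are the groups in which Tlr4 and Lyz2 were low. No pair of groups met both criteria, and the 3 libraries of groups A and B spread more widely than those of groups C and D. The log2 fold change was 2.64 in C against A (95% interval 0.75 to 4.54, adjusted p = 0.113, edgeR), 2.22 in D against B (0.99 to 3.46, adjusted p = 0.023, edgeR) and 2.84 in D against A (0.92 to 4.75, adjusted p = 0.0314, edgeR). Replicate 2 of group A decided the first and the last, which were 4.10 (adjusted p = 0.00416, edgeR) and 4.28 (adjusted p = 0.000534, edgeR) without it. Replicate 1 of group B decided the other, which was 1.78 without it (adjusted p = 0.00771, edgeR). Between D and C it was 0.21 (standard error 0.0554, adjusted p = 0.00558, edgeR), a fold change of 1.16, and between B and A 0.61 (-1.52 to 2.74).

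Itgam, the CD11b chain (chromosome 7, 128062640 to 128118491), was high throughout. It was at 1129, 1599 and 406 CPM in group A, 1467, 1955 and 2029 CPM in group B, 1151, 1205 and 1167 CPM in group C and 1184, 1115 and 1110 CPM in group D. The 3 libraries of group B were above those of group D, with a log2 fold change of -0.67 in D against B (95% interval -1.04 to -0.3, adjusted p = 0.0229, edgeR). In the other pairs it lay between -0.05 and 0.79, and the interval in D against C, -0.17 to 0.06, was the narrowest.

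Itgb2, the beta chain shared by these receptors (chromosome 10, 77530252 to 77565708), was at 1222, 1330 and 679 CPM in group A, 1227, 1481 and 1024 CPM in group B, 1809, 2005 and 1981 CPM in group C and 1789, 1884 and 1945 CPM in group D. Groups C and D lay above groups A and B without overlap. The differences were under 2-fold, with log2 fold changes of 0.87 in C against A (adjusted p = 0.118, edgeR), 0.6 in D against B (adjusted p = 0.0293, edgeR) and 0.8 in D against A (adjusted p = 0.0501, edgeR). Between D and C it was -0.05 (95% interval -0.18 to 0.08), and between B and A 0.19 (-0.54 to 0.93).

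Per kilobase of transcript, Itgal, Itgam and Itgax, the 3 partners of Itgb2 among the 10 genes, were present in different shares. Of these 3, Itgam was the main chain in every library, with 83.9% to 91.6% of the summed CPM per kb in group A, 65.9% to 72.7% in group B, 60.7% to 62.3% in group C and 46.4% to 48.8% in group D. Itgal made up 2.29% to 4.87% in group A and 1.62% to 1.81% in group C, and 21.2% to 31% in group B and 14.8% to 20.8% in group D. Itgax made up 3.51% to 13.7% in group A and 2.7% to 10.2% in group B, and 35.9% to 37.6% in group C and 32% to 36.4% in group D. Group D was thus the one with large shares of both chains, and group A had small shares of both. The shares in a library sum to the whole, so a larger share of a chain lowers those of the others.

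**Figure D2:**
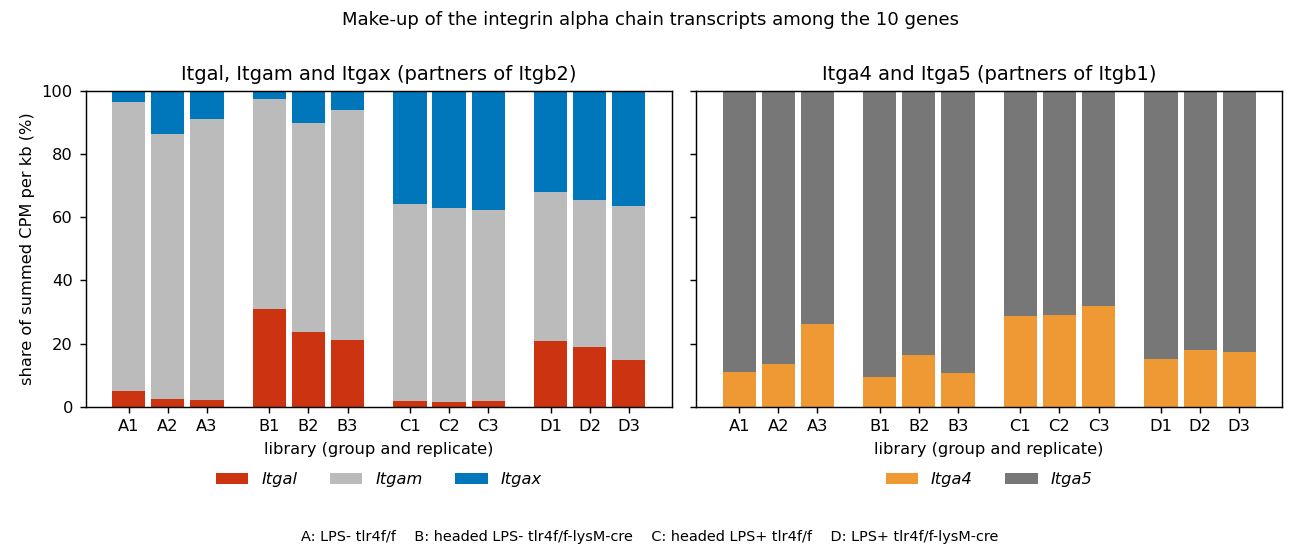
Share of each alpha chain in the summed CPM per kb (%) of Itgal, Itgam and Itgax, partners of Itgb2 (left), and of Itga4 and Itga5, partners of Itgb1 (right), with 1 bar per library. Itgal took 14.8% to 31% in groups B and D, and Itgax 32% to 37.6% in groups C and D.

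Itga4, the alpha chain of the VCAM-1 receptor VLA-4 (chromosome 2, 79255426 to 79333123), was at 110, 76.6 and 124 CPM in group A, 510, 517 and 215 CPM in group B, 131, 128 and 167 CPM in group C and 421, 508 and 511 CPM in group D. Groups B and D were again above groups A and C without overlap, with replicate 3 of group B the lowest of the high libraries. The log2 fold change was 1.98 in B against A (standard error 0.378, adjusted p = 0.00852, edgeR), 1.75 in D against C (standard error 0.127, adjusted p = 1.21e-05, edgeR) and 2.21 in D against A (standard error 0.207, adjusted p = 0.000822, edgeR). The calls in D against C and D against A held without each library in turn. With 1 of the 6 libraries of B against A left out, the call held for 1 of them, replicate 3 of group B (adjusted p = 0.00418, edgeR), and was lost for each other, with an adjusted p of 0.0219 to 0.0317. It was also lost with the counts summed over transcripts (adjusted p = 0.0112, edgeR) and with the replicate number as a block (adjusted p = 0.0287, edgeR). Cerkl, a gene on the other strand, overlaps Itga4 and had 31035 counts over all libraries against 140848. It was at 16.9 to 40.5 CPM in groups A and C and at 49.7 to 115 CPM in groups B and D, and its reads cannot be told apart from those of Itga4.

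Itga5, the alpha chain of the fibronectin receptor (chromosome 15, 103344286 to 103366763), was at 398, 222 and 156 CPM in group A, 2220, 1190 and 808 CPM in group B, 146, 141 and 160 CPM in group C and 1063, 1031 and 1090 CPM in group D. The lowest value of groups B and D, 808 CPM, was above the highest of groups A and C, 398 CPM. The log2 fold change was 2.83 in D against C (standard error 0.0632, adjusted p = 4.02e-12, edgeR), where the call held without each library. It was 2.03 in D against A (standard error 0.345, adjusted p = 0.00566, edgeR), where the call was lost without replicate 2 of group A (adjusted p = 0.0205, edgeR) and without replicate 1, 2 or 3 of group D (0.0261, 0.0259 and 0.0253), and with the replicate block (0.0148). In B against A it was 2.43 (95% interval 1.2 to 3.67) and missed the threshold (adjusted p = 0.0124, edgeR). Groups A and C differed by -0.77 (-1.59 to 0.05).

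Itgb1, the beta chain of VLA-4 and VLA-5 (chromosome 8, 128685654 to 128733200), was at 640, 538 and 413 CPM in group A, 1014, 788 and 854 CPM in group B, 585, 578 and 586 CPM in group C and 825, 839 and 794 CPM in group D. Groups B and D lay above groups A and C without overlap, as for Itga4 and Itga5, but by less than 2-fold. In D against C the log2 fold change was 0.48 (standard error 0.0497, adjusted p = 2.93e-06, edgeR), a fold change of 1.4. In B against A it was 0.73 (adjusted p = 0.0501, edgeR) and in D against A 0.63 (adjusted p = 0.0311, edgeR). Per kilobase, the sum of Itga4 and Itga5 over Itgb1 was 0.453 to 0.664 in group A, 0.327 to 0.381 in group C, 1.01 to 2.3 in group B and 1.43 to 1.58 in group D. Itga5 was the larger of both alpha chains in every library, with 68.2% to 90.7% of their sum.

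Selplg, which encodes PSGL-1 (chromosome 5, 113818536 to 113832644), showed no separation of groups. It was at 85.2, 166 and 130 CPM in group A, 89.4, 228 and 148 CPM in group B, 126, 139 and 104 CPM in group C and 115, 117 and 107 CPM in group D. No pair passed the test, and the log2 fold changes lay between -0.44 and 0.28. The narrowest interval was that of D against C, -0.35 to 0.09.

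**Figure D3:**
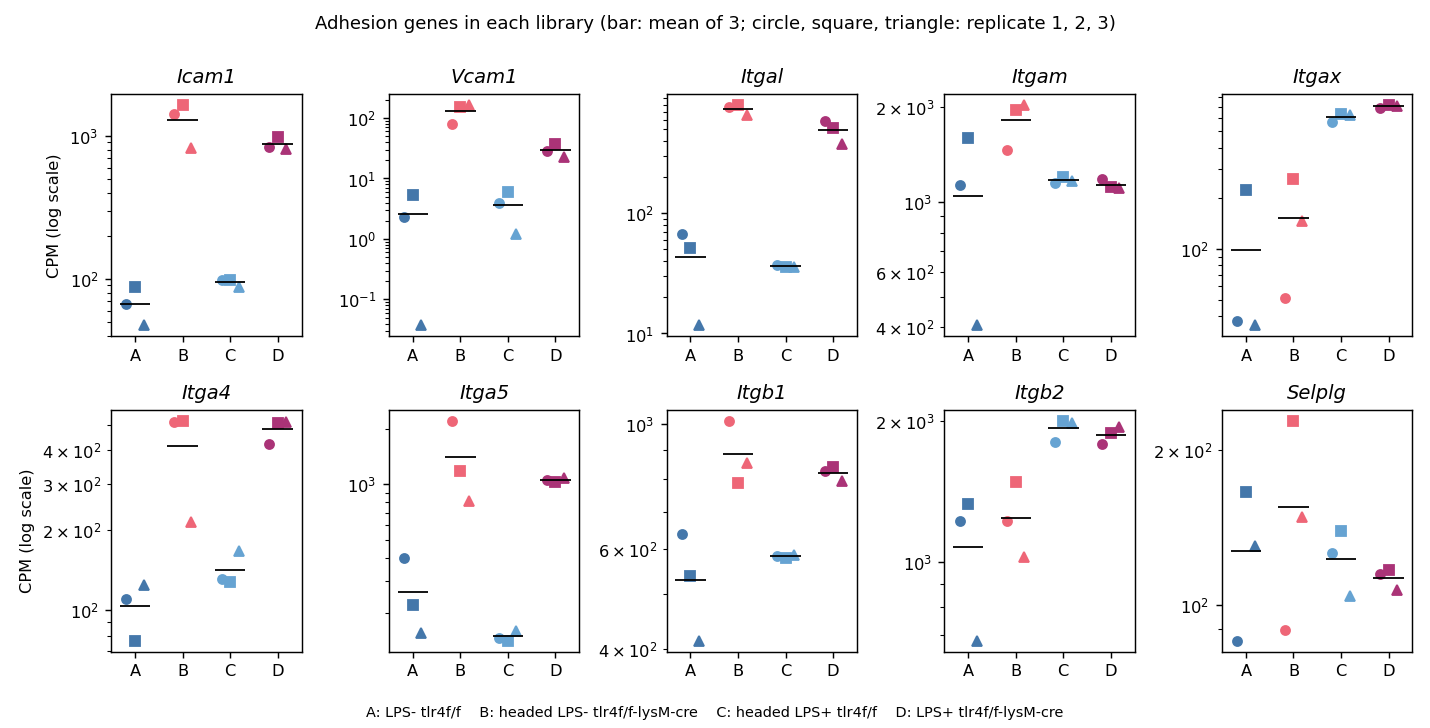
CPM of the 10 genes in each library on log axes that differ between panels, with 3 points and their mean (bar) per group. Icam1, Vcam1, Itgal, Itga4, Itga5 and Itgb1 were high in groups B and D, and Itgax and Itgb2 in groups C and D.

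Ordered by CPM per kb, Itgb2 was the highest of the 10 genes in group A (mean 365), group C (655) and group D (635). In group B Icam1 was the highest (509), followed by Itgb2 (422) and Itgam (388), with overlapping ranges between these neighbours. Icam1 was the sixth in group A (26.4) and in group C (37.2), and the second in group D (346), where it overlapped neither Itgb2 above nor Itgam (243) below. Vcam1 was the last in groups A (0.751), C (1.09) and D (8.6) with no overlap with the gene before it, and overlapped its neighbours Itga4 (42.1) and Itgax (38) in group B, where its mean was 38.4. In group A, neighbours overlapped in 7 of the 9 steps of the order, and in group C in 1, between Icam1 and Itga5.

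A gene was called different where its fold change was above 2 and its adjusted p below 0.01, the criteria of the study. Between C and A, 0 of the 10 genes were called, and of all 14701 genes tested 0% were called higher and 0% lower. Lyz2 (log2 fold change -10.09, adjusted p = 0.0224, edgeR) and Tlr4 (-2.02, adjusted p = 0.0402, edgeR) were among the genes not called. The 0 calls thus do not show that groups A and C were alike. At a threshold of 0.05, 3624 of the 14701 passed before adjustment and 187 after it, and none of the 10 was among the latter. The median log2 fold change of the 10 genes was 0.33, against -0.03 over all genes tested. Icam1, Itgax, Itga4 and Itgb2, 4 of the 10, were higher in group C without overlap and 0 were lower, against 16.6% higher and 18.8% lower without overlap over all genes tested. As headed, this pair asks for the effect of LPS in tlr4f/f BMDMs. With the headings exchanged, it asks for the difference of the genotypes without LPS.

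Between B and A, Icam1, Itgal and Itga4 were called higher, 3 of the 10, and 0 were called lower. Over all 14635 genes tested, 9.25% were called higher and 7.81% lower. All 10 log2 fold changes were positive, with a median of 1.39 against -0.08 over all genes, and 6 of the 10 were higher without overlap, with Vcam1, Itga5 and Itgb1 beside the 3 called. Without overlap, 25.1% of all genes tested were higher and 29.1% lower. As headed, this is the difference of tlr4f/f-lysM-cre from tlr4f/f without LPS. With the exchange, it is the effect of LPS in tlr4f/f.

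Between D and C, Icam1, Itgal, Itga4 and Itga5 were called higher, 4 of the 10, and 0 were called lower, against 10.8% higher and 10.9% lower of 14540 genes. The median of the 10 was 1.11, against -0.02 over all genes, and 7 of the 10 were higher without overlap, against 33.5% higher and 33.8% lower of all genes tested. These 4 calls held without each library in turn. The common coefficient of variation between libraries, fitted by edgeR, was 0.0888 in this pair and 0.287 to 0.431 in the others. Its p-values and calls therefore cannot be set directly against those of the other pairs. Itgam, Itgb2 and Selplg had log2 fold changes of -0.05, -0.05 and -0.13, with intervals between -0.35 and 0.09. As headed, this is the difference of the genotypes under LPS, and with the exchange it is the effect of LPS in tlr4f/f-lysM-cre.

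Between D and B, Vcam1 was called lower, 1 of the 10, and 0 were called higher, against 3.65% lower and 2.42% higher of 14234 genes. Of the 10 genes, 7 had a negative log2 fold change, with a median of -0.42 against 0.03 over all genes. Itgax and Itgb2 were higher in group D without overlap, and Vcam1, Itgal and Itgam were lower without overlap, 2 and 3 of the 10 against 25.5% higher and 22.5% lower of all genes tested. The intervals of Itga4 (-0.53 to 0.99) and Itga5 (-1.23 to 0.43) included 0. As headed, this is the effect of LPS in tlr4f/f-lysM-cre. With the exchange, it is the difference of tlr4f/f-lysM-cre from tlr4f/f under LPS.

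Groups D and A carry no doubtful heading, but differ in genotype and in LPS together. Icam1, Itgal, Itga4 and Itga5 were called higher in group D, 4 of the 10, and 0 were called lower, against 6.92% higher and 6.45% lower of 14584 genes. The median was 2.12, against -0.05 over all genes, and 8 of the 10 were higher without overlap, all but Itgam and Selplg, against 29.2% higher and 28.8% lower of all genes tested. The comparisons share groups, so their calls are not independent of each other.

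The interaction of genotype and LPS is the change from B to D less the change from A to C, and it has the same value in both readings. Of the 10 genes 0 were called, against 0.659% higher and 0.38% lower of 15775 genes, of which 3706 passed 0.05 before adjustment and 1102 after it. The largest in size were Vcam1 at -2.67 (95% interval -5.47 to 0.12, adjusted p = 0.233, edgeR) and Icam1 at -1.05 (-1.86 to -0.25, adjusted p = 0.112, edgeR). The intervals of the other 8 genes all included 0, and those of Itgax (-2.59 to 1.76) and Itgal (-1.76 to 1.08) were wide.

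**Figure D4:**
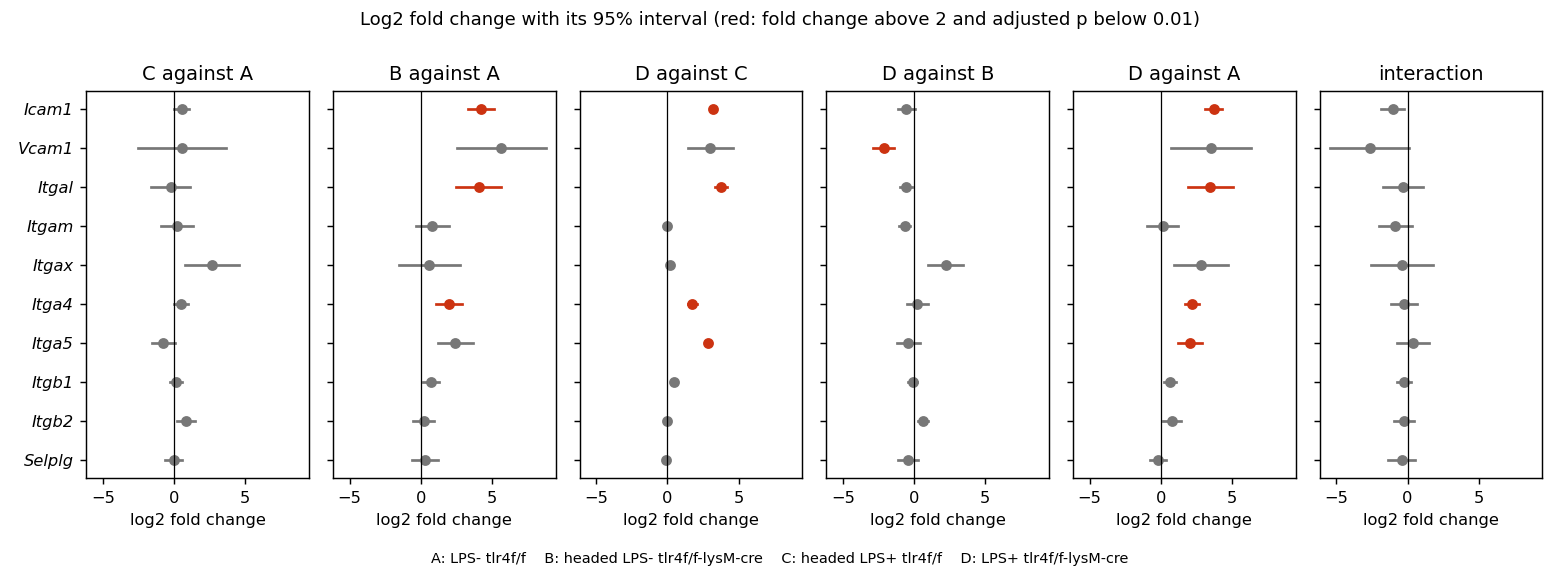
Log2 fold change of the 10 genes with its 95% interval in 5 pairs of groups and in the interaction, with genes that passed both criteria in red. Icam1, Itgal and Itga4 passed in B against A, D against C and D against A, and Itga5 in D against C and D against A. Vcam1 was the only gene to pass in D against B.

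Of 89 other adhesion genes, chosen for their role, 88 were analysed. Of the 73 to 77 tested in a comparison, 16 were called higher and 3 lower in B against A, 23 and 8 in D against C, 13 and 4 in D against A, 1 and 7 in D against B, 0 and 0 in C against A, and 0 and 1 in the interaction. Of all genes tested, 9.25% were called higher and 7.81% lower in B against A, and 10.8% and 10.9% in D against C. The shares were 6.92% and 6.45% in D against A and 2.42% and 3.65% in D against B. They were 0% and 0% in C against A and 0.659% and 0.38% in the interaction. The counts per list below are to be read beside these shares. Genes named from these lists are, per list and comparison, those called with the largest changes.

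Among the other integrin subunits, 4 of 13 tested were called higher and 4 lower in D against C. The median log2 fold change of the list was 0.12, against -0.02 over all genes tested. Itgb8, a beta chain that pairs with the alpha chain of Itgav, was at 28.3 ± 2.58 CPM in group D and 0.492 ± 0.096 CPM in group C (SD, n = 3), a log2 fold change of 5.8 (adjusted p = 6.95e-12, edgeR). In group B it was at 39.8 ± 25.3 CPM, against 0 to 16 counts per library in group A, where the fitted log2 fold change of 8.57 (adjusted p = 0.00253, edgeR) depends on the prior count. Itga9, a receptor chain for tenascin, was higher in group D than in group C by a log2 fold change of 3.4 (adjusted p = 4.07e-06, edgeR), and Itga1, a collagen receptor chain, higher in group B than in group A by 2.52 (adjusted p = 0.00853, edgeR). Itgb3, the beta chain of the vitronectin receptor, fell by 2.86 on the log2 scale in D against C (adjusted p = 7.28e-05, edgeR). Itgb5, another partner of Itgav, was at 222 ± 37.7 CPM in group A, 102 ± 26.4 CPM in group B and 89.9 ± 6.93 CPM in group D (SD, n = 3), lower in B (adjusted p = 0.0093, edgeR) and in D (adjusted p = 0.00139, edgeR) than in A. Itga6, a laminin receptor chain that also pairs with Itgb1, was lower in group D than in group C by a log2 fold change of -2.2 (adjusted p = 0.000275, edgeR) and lower in group D than in group A by a log2 fold change of -2.48 (adjusted p = 0.00931, edgeR), and Itgb7, which pairs with Itga4, lower in group D than in group B by -1.36 (adjusted p = 0.00928, edgeR). Itga8 was lower in group D than in group C by -2.21 (adjusted p = 0.0019, edgeR) at under 1 CPM in both.

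Of the other immunoglobulin-type molecules, 6 of 12 tested were called higher in D against C and 0 lower. Pecam1 and Nectin2 had the largest changes of the 6, and the median of the list was 1.21, against -0.02 over all genes tested. Nectin2, a junction protein, was at 72.3 ± 47.4 CPM in group B and 9.77 ± 0.361 CPM in group A (SD, n = 3), a log2 fold change of 2.87 (adjusted p = 0.00446, edgeR), and at 23.1 ± 2.4 CPM in group D and 6.65 ± 0.235 CPM in group C. Pecam1, the CD31 of endothelium and leukocytes, was at 3.16 ± 1.6 CPM in group B and 0.237 ± 0.124 CPM in group A (SD, n = 3), with a log2 fold change of 3.7 (adjusted p = 0.00708, edgeR).

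For the selectin side, Selplg needs sugars and sulfate on its protein to bind selectins, and of 9 enzymes of this kind, all tested, 3 were called higher and 1 lower in D against C, and 3 higher and 2 lower in B against A. Gcnt1, which builds the core of the sugar chains, was at 122 ± 24.7 CPM in group A, 81.6 ± 5.63 CPM in group C, 4.47 ± 1.27 CPM in group B and 8.14 ± 1.74 CPM in group D (SD, n = 3). The log2 fold change was -4.78 in B against A (adjusted p = 0.000454, edgeR) and -3.32 in D against C (adjusted p = 2.01e-07, edgeR). Fut7, which adds the fucose, was lower in B than in A by -2.8 (adjusted p = 0.00713, edgeR). Tpst1, a tyrosine sulfotransferase, was at 146 ± 12.3 CPM in group B, 69.6 ± 8.23 CPM in group D, 25.2 ± 5.89 CPM in group A and 20 ± 1.87 CPM in group C (SD, n = 3), and was called in 4 of the 5 pairs compared, all but C against A. St3gal3, a sialyltransferase, was at 104 ± 61.2 CPM in group B and 112 ± 9.45 CPM in group D, against 16.1 ± 4.1 CPM in group A and 16.3 ± 0.845 CPM in group C (SD, n = 3). St3gal4, another sialyltransferase, was higher in group D than in group A by a log2 fold change of 1.47 (adjusted p = 0.00139, edgeR). Selplg itself was called in none of the pairs, as given above.

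Among the receptors related to selectins, Spn, which encodes CD43, was at 114 ± 5.43 CPM in group D, 50.8 ± 3.57 CPM in group C and 32.5 ± 12.5 CPM in group B (SD, n = 3), and was called higher in D than in either. Cd24a was lower in group D than in group C by a log2 fold change of -2.47 (adjusted p = 0.00297, edgeR), and Cd34, a sialomucin, was higher in group D than in group A by 2.81 (adjusted p = 0.00458, edgeR).

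Of 24 genes for the activation of integrins and their link to the cytoskeleton, all tested, 6 were called higher and 0 lower in B against A, and 6 higher and 2 lower in D against C. The kinases Src and Syk, which act in integrin signalling, were called higher in D against C. Syk was at 304 ± 57.9 CPM in group A, 293 ± 9.56 CPM in group C and 1584 ± 43.7 CPM in group D (SD, n = 3). Src was at 258 ± 45 CPM in group B, 88.2 ± 7.05 CPM in group D, 20.1 ± 11.4 CPM in group A and 12.8 ± 0.493 CPM in group C (SD, n = 3), lower in D than in B by a log2 fold change of -1.54 (adjusted p = 0.0019, edgeR). Fblim1, a filamin-binding adaptor, and Cytip, a partner of cytohesin, were lower in D than in C by -2.82 (adjusted p = 1.56e-11, edgeR) and -2.58 (adjusted p = 2.61e-09, edgeR). Cyth1, or cytohesin 1, which regulates LFA-1, was lower in D than in B by -1.24 (adjusted p = 0.00335, edgeR) and was the only listed gene called in the interaction.

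Of 8 soluble and matrix ligands tested, 3 were called higher in D against C. C3, whose fragment iC3b is bound by Mac-1, was at 214 ± 108 CPM in group A, 3100 ± 1418 CPM in group B, 28.7 ± 2.38 CPM in group C and 623 ± 74.9 CPM in group D (SD, n = 3), called higher in B than in A and in D than in C and lower in D than in B. Tnc, the matrix protein tenascin C, was lower in D than in B by a log2 fold change of -3.49 (131 ± 51.6 against 11.6 ± 2.27 CPM, SD, n = 3, adjusted p = 0.00152, edgeR). Thbs1, or thrombospondin 1, was higher in D than in C by 2.47 (adjusted p = 7.39e-08, edgeR). Matrix genes are also expressed by stromal cells, whose marker sums are given above, and the part of stromal RNA in these values was not tested.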

How the data were processed

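RNA of BMDMs was sequenced in 12 libraries, 3 per group. Per the labels and the study's methods, the authors trimmed reads (Trimmomatic 0.36), aligned them with HISAT2 (mm10) and used HTSeq for counting. The deposited table gives raw counts, not normalized, for 115140 transcripts, beside transcript lengths used here for CPM per kb. Transcripts of a gene share reads, so the row with the highest total was taken per gene (the 10 genes had 21 rows). The labels name both rRNA removal and polyA selection. Column headings gave the groups.

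Tests used edgeR 4.0.16 under R 4.3.3 (low counts removed by filterByExpr, TMM, robust quasi-likelihood fit and test, Benjamini-Hochberg adjustment over all genes tested). Each pair used its 6 libraries and the interaction all 12. The call required a fold change over 2 with an adjusted p under 0.01. The members, gene lists and tests were chosen with earlier results of these data known. Genes named from the lists are up to 2 per direction, list and comparison with the largest change among those called whose higher group had 10 or more counts per library. Jaml of the lists was not analysed here, and some listed genes are counted but not reported by name. The tests were checked on simulated counts with 200 changed genes. Intervals are at 95%. Positions are from GENCODE vM21, and promoters from RefSeq with Python 3.11.15. Alternatives were DESeq2 1.42.0, RLE factors, other filters, a fit of 12 libraries, a replicate block, an adjusted p below 0.05, sums over transcripts, and each library left out. Counts without molecular identifiers are not independent molecules. Libraries of a group differed by more than sampling noise, and none was counted as a duplicate. Between 2 libraries of a group, the chi-square per degree of freedom was 184.77 to 374.8 in groups A and B and 9.52 to 21.16 in groups C and D.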

Additional observations from a re-analysis of the deposited data

How the results depend on the processing

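Of the 89 counts of members called under the alternatives, 68 stayed within 1.5 times the value of the report and 21 moved. In D against B (1 member called), DESeq2 called 2, the fit of all 12 libraries 0, the replicate block 0, and an adjusted p below 0.05 without a minimum fold change 4, with 0 to 2 when 1 library was left out. In B against A (3 called), DESeq2 called 5, the fit of all 12 libraries 5 and the adjusted p below 0.05 5, with 1 to 3 when 1 library was left out. In D against C (4 called), the adjusted p below 0.05 gave 7, with 4 to 5 when 1 library was left out. Many of all genes tested also passed an adjusted p below 0.05. They were 8929 of 14540 in D against C, 5464 of 14635 in B against A and 3804 of 14234 in D against B. In D against A (4 called), the replicate block gave 2, with 2 to 5 when 1 library was left out, and in C against A (0 called) leaving 1 out gave 0 to 1. The only such gene was Itgax.

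Of 886 values of single members, 813 kept their direction and side of the threshold, 27 gained a call, 30 lost one and 16 changed sign, and none of these 16 belongs to a gene called in that comparison. With the replicate block in C against A, Itgal was 0.07 and Selplg 0.02. With 1 library left out in C against A, Itgal ranged from -0.69 to 0.24, Selplg from -0.23 to 0.22, Vcam1 from -0.03 to 1.66 and Itgam from -0.20 to 0.63. In D against B, Itga5 ranged from -0.69 to 0.08 and Itga4 from -0.10 to 0.41, in B against A Itgb2 from -0.06 to 0.37 and Selplg from -0.09 to 0.58, and in D against A Selplg from -0.39 to 0.07 and Itgam from -0.27 to 0.56. In the interaction, Itga5 ranged from -0.06 to 0.88, Itgal from -0.79 to 0.11 and Itgax from -1.87 to 0.20. The causes were not tested.

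Replicate numbers were not treated as pairs. Samples with the same number in different groups correlated in their deviations with r from -0.0379 to 0.472, over 0.1 in 5 of 18 pairs. Samples with different numbers had r from -0.491 to 0.203, over 0.1 in 3 of 36 pairs. The best match in another group had the same number in 19 of 36 cases. Between groups A and B, r was 0.472, 0.34 and 0.0143 for numbers 1, 2 and 3. A pairing is thus possible there, and the main test of B against A does not use it. The counts under the replicate block were 0 in C against A, 0 in D against B, 3 in B against A, 4 in D against C, 2 in D against A and 0 in the interaction. The 3 in B against A were not the same genes as in the main test, since Itga4 lost its call (adjusted p = 0.0287, edgeR). Vcam1 in group A rested on 2 to 331 counts per library, which limits every fold against that group.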
